A study of Rattus norvegicus with 8 samples.

Results

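The genes of major histocompatibility complex (MHC) class II presentation were followed in the colon of rats fed cocoa, cocoa fiber or inulin. These genes are RT1-Da, RT1-Db1, RT1-Ba, RT1-Bb, RT1-DMa, RT1-DMb, Cd74 and Ciita, where RT1 is the name of the MHC of the rat. They were chosen by name, and all 8 had a probe on the array, with 10 probes between them. Of the 8 genes, 7 passed the filter on dim probes and were tested among 19901 genes. The exception was RT1-Ba, whose only probe was not well above background in any of the 16 rats.

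MHC class II molecules are pairs of an alpha and a beta chain that display peptides on the cell surface to CD4+ T cells. The chains assemble in the endoplasmic reticulum on the invariant chain, the product of Cd74, which fills the peptide groove and directs the complex to endosomes. There, proteases cut the invariant chain down, and the DM molecule exchanges the remaining piece for a peptide. RT1-Da and RT1-Db1 encode the chains of the rat counterpart of HLA-DR, RT1-Ba and RT1-Bb those of the counterpart of HLA-DQ, and RT1-DMa and RT1-DMb those of DM. Transcription of these genes depends on Ciita, a coactivator that binds no DNA itself and is recruited by factors sitting on the X and Y boxes of class II promoters. B cells, dendritic cells and macrophages express class II constantly, and gut epithelium can be induced to do so by interferon gamma. In the colon, lymphoid follicles are rich in class II positive B cells.

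In the rat genome (RefSeq annotation, build GRCr8), the 6 RT1 genes lie in 1 stretch of chromosome 20, RT1-Da at chr20:4515393-4520387, RT1-Db1 at chr20:4550594-4560182, RT1-Ba at chr20:4577057-4581650, RT1-Bb at chr20:4598475-4604118, RT1-DMb at chr20:4695009-4702560 and RT1-DMa at chr20:4708932-4712335. Cd74 lies at chr18:56527071-56536406 and Ciita at chr10:5646854-5694393. Promoters of 300 bases, 250 of them before the annotated start, were at hand for 6 of the 8 genes, all but RT1-DMb and Ciita. They were searched on both strands for ACNGATG, letters found in the X box, and for GATTGG, the inverted CCAAT of the Y box. The first was present in 4 of the 6 promoters and in 10.2% of all 33469 rat promoters, and the second in 5 of the 6 and in 14.8% of all. The first followed by the second within 40 bases on the same strand was found in 43 promoters (0.128%), among them RT1-Da, RT1-Db1, RT1-Bb and RT1-DMa. The same arrangement was present in RT1-DOb, a class II gene outside the 8 that encodes a chain of the DM inhibitor DO, and in RT1-Db2. The stretches that hold both motifs follow, because they are the feature that these genes share at their starts. Each runs 5′ to 3′ on the strand of the gene, with both motifs in capitals.
RT1-Da (chr20:4515324-4515378, plus strand): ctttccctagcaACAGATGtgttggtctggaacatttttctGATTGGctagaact
RT1-Db1 (chr20:4560230-4560283, minus strand): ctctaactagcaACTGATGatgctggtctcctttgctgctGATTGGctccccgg
RT1-Bb (chr20:4604167-4604220, minus strand): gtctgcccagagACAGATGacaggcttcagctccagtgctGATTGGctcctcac
RT1-DMa (chr20:4712387-4712441, minus strand): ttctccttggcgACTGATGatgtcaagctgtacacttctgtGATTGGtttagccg
RT1-DOb (chr20:4627594-4627645, minus strand): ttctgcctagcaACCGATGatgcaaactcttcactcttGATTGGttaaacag

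The motifs were separated by 22 bases in RT1-Da and RT1-DMa, by 21 in RT1-Db1 and RT1-Bb and by 19 in RT1-DOb. The first motif began between 79 bases (RT1-Da) and 109 bases (RT1-Db1) before the start in the 4 class II genes. The promoter of RT1-Ba held the Y-like letters only, and that of Cd74 held neither, which says only that these letters are not in this window.

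The rats were female Wistar animals, 6 weeks old per the labels, and received for 3 weeks a reference diet (REF), a diet with 10 % cocoa (C10), a diet with cocoa fiber (CF) or a diet with inulin (I). RNA came from a whole piece of the middle colon, so all cell types of the wall entered each sample, and a change in the number of class II positive cells cannot be told apart from a change in RNA per cell. Each of 8 two-color Agilent arrays took 1 rat in Cy5 and 1 in Cy3, which gave 4 rats per diet with the dyes balanced. The titles give each of the 16 channels a code of its own, which is taken here as 1 rat, so that n = 4 per diet. The methods also speak of dye swaps of the RNA of each sample, whereas each code occurs once, and whether the labels assign the channels rightly was not tested. The C10 rats were spread over arrays 1 to 4 and those fed inulin over arrays 5 to 8, so C10 and I had no array in common. The CF rats were on arrays 3 to 6 and the REF rats on arrays 1, 2, 7 and 8. CF and REF therefore had no array in common either, and both comparisons set rats on different arrays against each other. Wistar is an outbred strain, so the rats are not genetically identical, and their RT1 alleles are not given. Between 68.6% and 83.9% of the spots of a rat were well above background. Markers of the epithelium had a mean log2 signal of 13.22 to 14.34 over 8 genes in the 16 rats.

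Values are log2 signals after normalization and removal of the dye effect, and levels are compared between rats for 1 probe, not between genes. A call required an adjusted p of limma under 0.05 together with a 2-fold change or more. Under this rule, 0 of the 7 genes were called in C10 against REF, where 0.196% of all genes were. Likewise, 0 were called in CF against REF (0% of all genes), in I against REF (0%), in C10 against CF (0.1%), in C10 against I (0.166%) and in CF against I (0%). An unadjusted p below 0.05 was reached by RT1-Bb alone, in C10 against CF and in C10 against I, while 17.1% of all genes in C10 against REF, 6.34% in CF against REF, 5.71% in I against REF, 13.4% in C10 against CF, 12.2% in C10 against I and 2.82% in CF against I had one. Rank product, the test used by the study, also called 0 of the 7 in each comparison under this rule, although RT1-Bb passed its adjusted threshold in C10 against I without reaching 2-fold.

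The invariant chain gene Cd74 was read at 13.40, 13.21, 14.85 and 13.85 in REF rats 1 to 4. In C10 rats 1 to 4 it was 14.65, 13.42, 13.60 and 12.73. The CF rats had 14.25, 13.95, 14.96 and 13.50, and the I rats 15.08, 13.97, 14.75 and 13.86. The 4 diets overlapped, and each held rats more than 1 unit apart, that is, more than 2-fold. The group means were 13.83 ± 0.73 in REF, 13.60 ± 0.79 in C10, 14.17 ± 0.61 in CF and 14.42 ± 0.59 in I (SD, n = 4). The fitted log2 change was -0.04 (SE 0.38) in C10, 0.47 (SE 0.41) in CF and 0.53 (SE 0.38) in I against REF, with limma's adjusted p of 0.977, 0.910 and 0.931. The 95% interval for C10 ran from -0.85 to 0.78, so changes of either sign within it are compatible with these rats. The smallest change that would have passed was not computed.

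**Figure D1:**
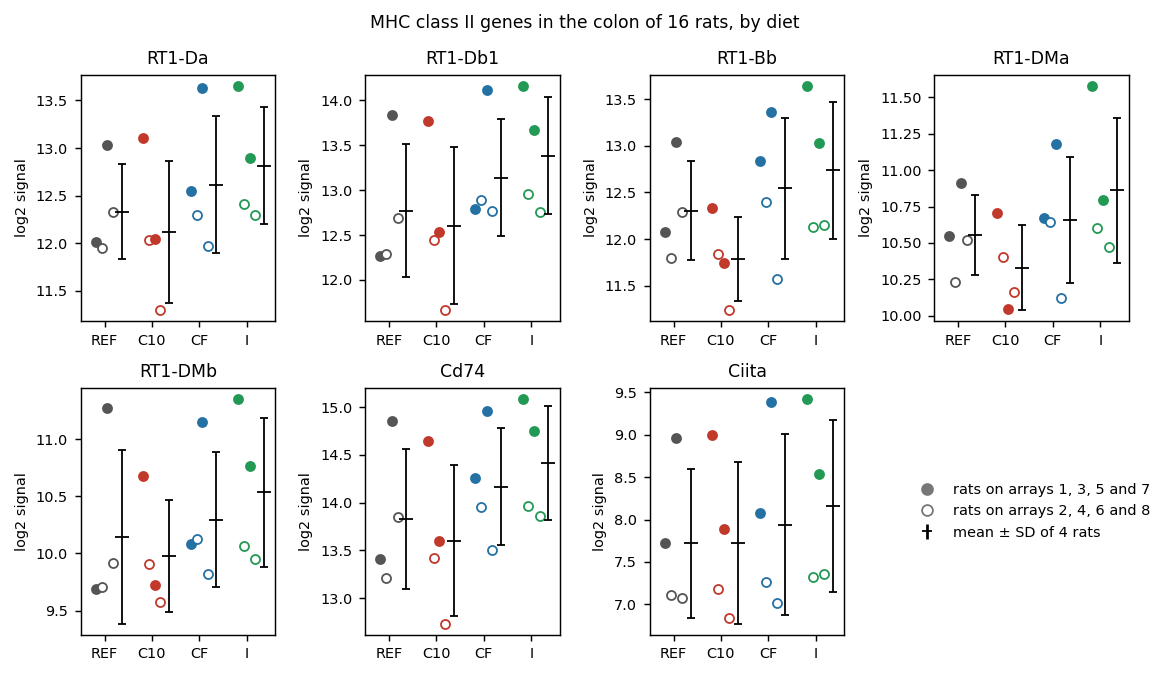
Normalized, dye-adjusted log2 signal (y axis) of the 7 class II genes that passed the filter, by diet (x axis). Each point is 1 rat, filled for rats on arrays 1, 3, 5 and 7 and open for rats on arrays 2, 4, 6 and 8, and bars give mean ± SD of 4 rats; for Cd74 the REF rats span 13.21 to 14.85 and the C10 rats 12.73 to 14.65, and all 4 diets overlap in all 7 panels.

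For the chains that present peptide, RT1-Da, the alpha chain of the DR counterpart, was 12.01, 11.95, 13.04 and 12.33 in the REF rats and 13.11, 12.03, 12.04 and 11.29 in the C10 rats. It was 12.55, 12.29, 13.64 and 11.97 in the CF rats and 13.65, 12.42, 12.90 and 12.29 in the I rats. The highest and lowest rats of each diet were the ones that were highest and lowest for Cd74. The log2 change of RT1-Da against REF was -0.05 (SE 0.35) in C10, 0.38 (SE 0.38) in CF and 0.42 (SE 0.35) in I. Its partner RT1-Db1, the beta chain, ranged from 12.27 to 13.84 in REF, 11.66 to 13.77 in C10, 12.77 to 14.12 in CF and 12.75 to 14.16 in I. Its log2 change was 0.07 (SE 0.41) in C10, 0.51 (SE 0.44) in CF and 0.51 (SE 0.41) in I, and limma's adjusted p of the chains against REF lay between 0.910 and 0.964.

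RT1-Bb, the beta chain of the DQ counterpart, had the largest fitted difference between diets among the 7 genes. The probe used, called the brighter because its mean over the 16 rats was the higher, read 12.08, 11.80, 13.04 and 12.29 in the REF rats and 12.33, 11.84, 11.75 and 11.24 in the C10 rats. The CF rats had 12.84, 12.40, 13.36 and 11.58, and the I rats 13.64, 12.13, 13.03 and 12.15. Of the C10 rats, 3 lay below all 4 I rats, whereas C10 rat 1 lay above I rats 2 and 4. The log2 change was -0.83 (SE 0.36) in C10 against I, with an interval from -1.60 to -0.06, and -0.72 (SE 0.33) in C10 against CF, with an interval from -1.43 to -0.02. With 1 rat left out, the first ran from -1.05 to -0.58 and the second from -0.96 to -0.46, the latter without C10 rat 4. Limma's adjusted p was 0.369 and 0.358, and two-sided exact permutation tests on 4 and 4 rats (smallest possible p 0.0286) gave 0.0857 and 0.171, so neither difference passed these tests. The permutations exchanged the rats without regard to the array, so differences between arrays enter their spread. In rank product, the adjusted permutation p of RT1-Bb in C10 against I was 0.0428, with a difference of group means of -0.95, and 228 of the 19901 genes passed that threshold. Against REF, RT1-Bb changed by -0.43 (SE 0.33) in C10, 0.30 (SE 0.36) in CF and 0.40 (SE 0.33) in I.

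The DM chains gave smaller differences. RT1-DMa was 10.55 ± 0.28 in REF, 10.33 ± 0.29 in C10, 10.65 ± 0.43 in CF and 10.86 ± 0.50 in I (SD, n = 4). Its change was -0.19 (SE 0.21), 0.10 (SE 0.23) and 0.27 (SE 0.21) in C10, CF and I against REF, and -0.46 (SE 0.23, limma's adjusted p 0.434) in C10 against I. RT1-DMb was 10.15 ± 0.76, 9.98 ± 0.49, 10.30 ± 0.59 and 10.54 ± 0.65 in the same order of diets. Its change against REF was -0.01 (SE 0.34) in C10, 0.21 (SE 0.37) in CF and 0.29 (SE 0.34) in I.

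Ciita, the coactivator, was 7.73, 7.11, 8.96 and 7.08 in the REF rats and 9.0, 7.18, 7.89 and 6.84 in the C10 rats. It was 8.08, 7.26, 9.39 and 7.02 in the CF rats and 9.42, 7.32, 8.54 and 7.35 in the I rats. In every diet, rats 1 and 3 were the highest. The change against REF was 0.16 (SE 0.49) in C10, 0.28 (SE 0.53) in CF and 0.35 (SE 0.49) in I, with limma's adjusted p between 0.908 and 0.967. RT1-Ba was read between 5.92 and 6.11 in all rats, within the range of the lowest signals well above background in each rat (5.82 to 6.21), and no change was computed for it.

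**Figure D2:**
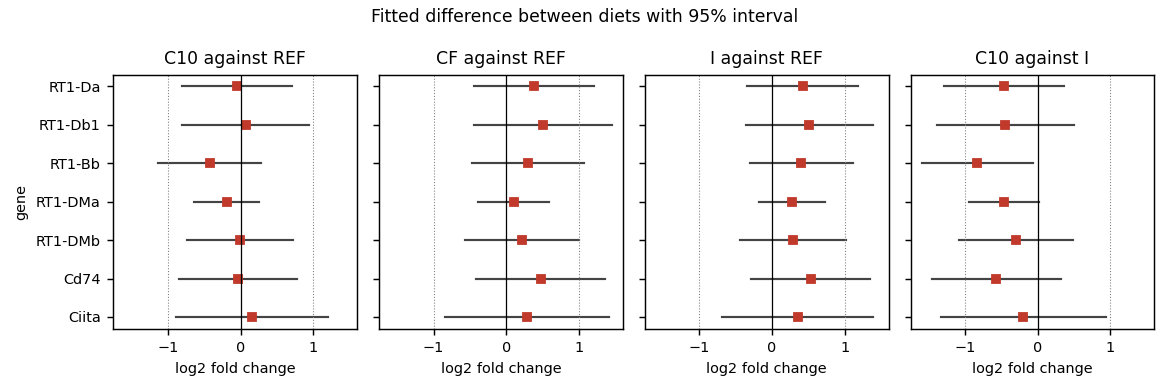
Fitted log2 fold change (x axis) of the 7 class II genes (y axis) with its 95% interval, for C10, CF and I against REF and for C10 against I; dotted lines mark a 2-fold change. In CF and I against REF all 7 points lie above 0 with intervals that include 0, and among the intervals shown that of RT1-Bb in C10 against I, from -1.60 to -0.06, is the one that does not reach 0.

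All 7 genes had positive changes in CF against REF (0.10 to 0.51, median 0.30) and in I against REF (0.27 to 0.53, median 0.40), whereas in C10 they lay on both sides of 0 (-0.43 to 0.16, median -0.04). The medians of all genes in these comparisons were 0.01 each. The comparisons share the 4 REF rats, and the signals of the 7 genes were correlated from rat to rat, so a common sign over the 7 genes is not 7 separate observations. Against CF and I, all 7 changes of C10 were negative, with medians of -0.43 and -0.46.

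The signals of single rats lay far apart. Between the lowest and the highest rat, the signal of Cd74 differed 5.10-fold, that of RT1-Da 5.13-fold, RT1-Bb 5.28-fold, RT1-Db1 5.66-fold, Ciita 5.99-fold, RT1-DMb 3.42-fold and RT1-DMa 2.90-fold. I rat 1 had the highest value of all 7 genes. CF rat 3, REF rat 3 and I rat 3 were among the 5 highest rats for all 7 genes, and C10 rat 1 for 6 of them. C10 rat 4 and REF rat 2 were among the 5 lowest for all 7 genes. The high rats thus came from all 4 diets.

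Across the 16 rats, the signals of the other 6 genes followed that of Cd74. Pearson's r with Cd74 was 0.97 for RT1-Db1 and for RT1-Da, 0.94 for RT1-DMb, 0.93 for RT1-Bb, 0.90 for Ciita and 0.87 for RT1-DMa, and Spearman's rho lay between 0.84 (Ciita) and 0.97. With 100000 permutations, p was 2e-05 for Ciita and 1e-05, the smallest that they can give, for the others, and the 6 adjusted p-values were 2e-05 or lower for r and 9e-05 or lower for rho. After centring each gene on its diet means, r was 0.83 to 0.97, and without C10 rat 4 and I rat 1, the rats farthest from the Cd74 median, it was 0.86 to 0.96. Among 19901 genes, RT1-Db1 and RT1-Da ranked 2 and 3 by r with Cd74 and RT1-DMa, the lowest of the 6, ranked 294. A value of r above 0.9 was reached by 164 genes.

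**Figure D3:**
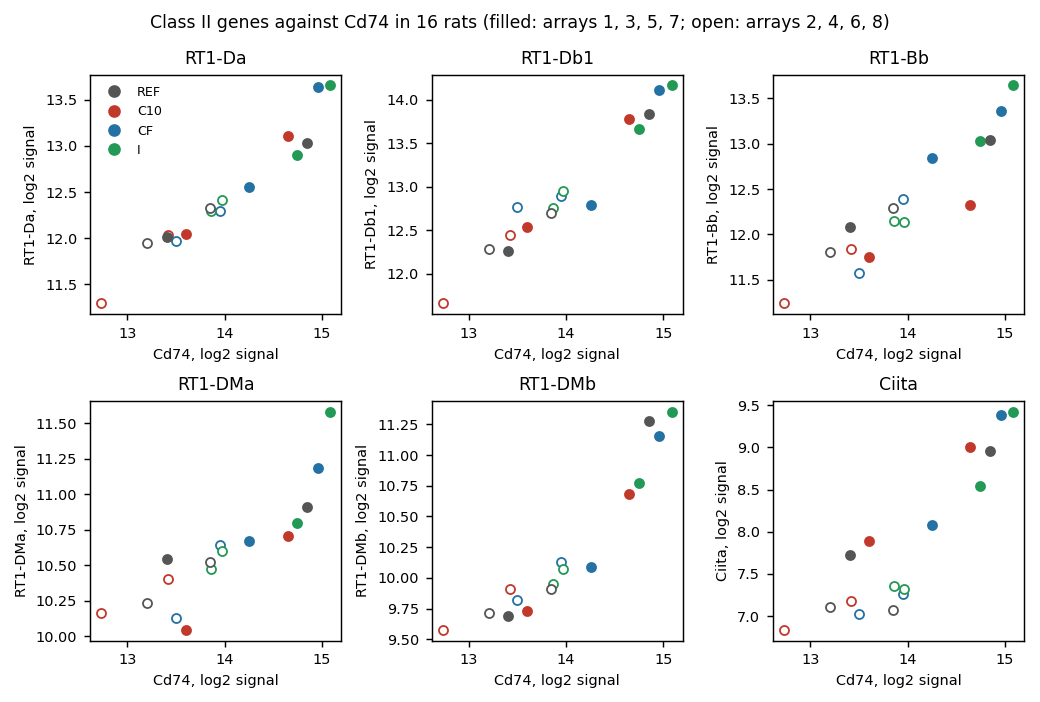
Log2 signal of 6 class II genes (y axes) against that of Cd74 (x axes) in 16 rats, colored by diet, filled for arrays 1, 3, 5 and 7 and open for arrays 2, 4, 6 and 8. Each panel rises along a line (r 0.87 to 0.97), with colors mixed along it; for Ciita all filled points lie above all open points.

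The level of the class II genes varied with the array on which a rat was measured. The means of the 8 rats on arrays 1, 3, 5 and 7, which are rats 1 and 3 of each diet, exceeded those of the 8 rats on arrays 2, 4, 6 and 8 by 1.48 for Ciita, 0.88 for Cd74, 0.84 for RT1-Db1, 0.83 for RT1-Bb, 0.80 for RT1-Da, 0.71 for RT1-DMb and 0.41 for RT1-DMa (log2 units). These array sets held 72.5% of the variance of Ciita between rats and 43.0% of that of Cd74, compared with 4.32% and 21.5% between the diets. The shares lay closer for RT1-Bb, with 40.6% between sets and 29.8% between diets, and for RT1-DMa, with 28.2% and 24.7%, and in the other 3 genes they were 35.3% to 40.5% and 12.4% to 18.7%. By chance alone, a share between 4 diets is larger than one between 2 array sets, and these shares are not corrected for that. Ciita ranged from 7.73 to 9.42 in the first set and from 6.84 to 7.35 in the second, without overlap. The same non-overlap was seen in 223 genes (1.12% of those tested) and the opposite one in 137 (0.688%). The other 6 class II genes overlapped between the sets. The sets were recognized after the values were seen, and no test is given for them. Each diet had 2 rats in either set, so the diets could also be compared inside a set. There, the 7 changes of C10 against REF were -0.52 to 0.10 in the first set and -0.51 to -0.07 in the second, those of CF 0.14 to 0.57 and -0.06 to 0.34, and those of I 0.46 to 0.86 and 0.10 to 0.39. The difference of RT1-Bb between C10 and I was -1.30 and -0.60. With the set as a further term of the fit, RT1-Bb differed by -0.88 (SE 0.28, limma's adjusted p 0.194) in C10 against I, and 0 of the 7 genes were called in any comparison.

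Markers of lymphocytes separated the same sets. Of the 8 B cell markers, Cd79a and Ms4a1 had no probe, and of the 6 tested, 5 (Cd79b, Cr2, Blk and Fcer2 among them) were higher in all 8 rats of arrays 1, 3, 5 and 7 than in the other 8, Pax5 being the exception. The mean log2 signal over the 6 was 7.67 to 9.72 in the first set and 6.75 to 7.11 in the second. Of 9 T cell markers, 6 separated the sets, and their mean was 7.64 to 9.21 against 6.97 to 7.36. Ptprc, the common leukocyte antigen CD45, overlapped between the sets and had medians of 11.17 and 9.0. Of 12 macrophage markers, 0 separated the sets, with means of 9.49 to 10.31 and 9.88 to 10.20. The part of lymphocyte number, tissue sampling or array in the class II levels was not tested, and the sets cannot be told apart from the arrays.

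**Figure D4:**
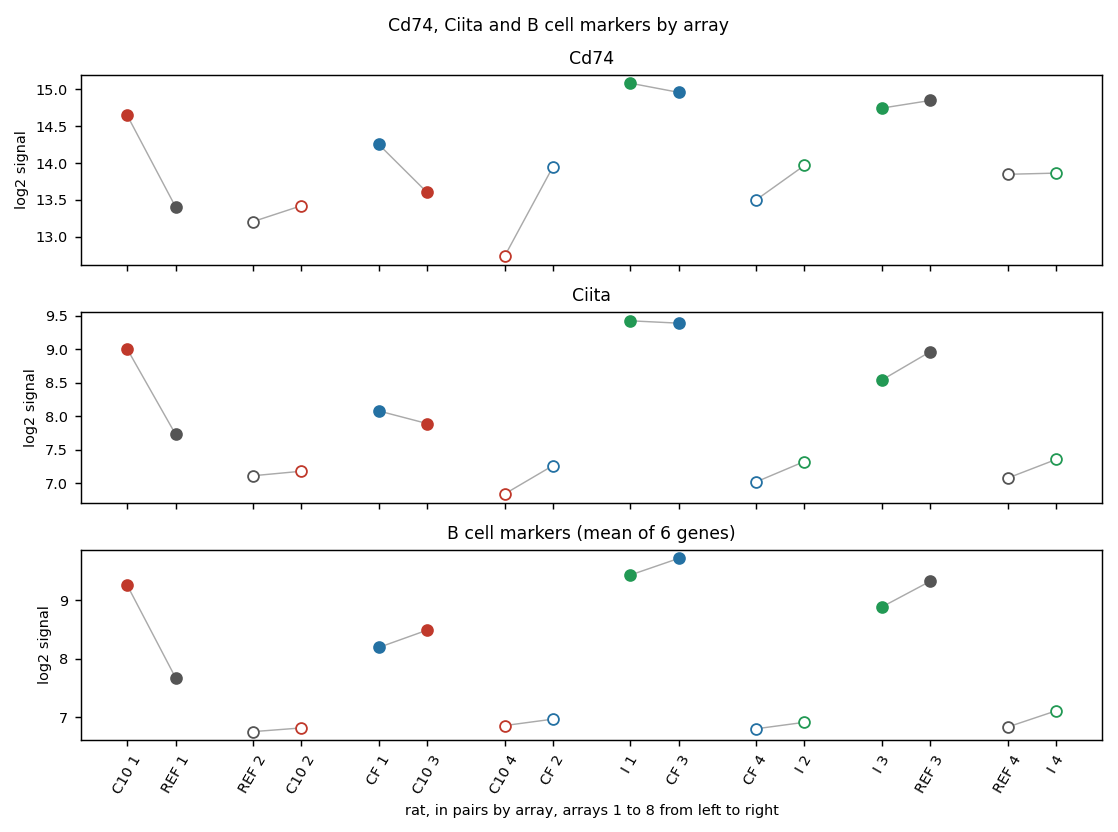
Log2 signal (y axes) of Cd74, of Ciita and of 6 B cell markers (mean) in 16 rats, ordered in pairs by array (x axis) and colored by diet (REF grey, C10 red, CF blue, I green); lines join the rats of an array, and rats on arrays 1, 3, 5 and 7 are filled. The B cell mean is 7.67 to 9.72 in the filled and 6.75 to 7.11 in the open points, Ciita is 7.73 to 9.42 and 6.84 to 7.35, and Cd74 overlaps between them.

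The relation between the class II genes also held inside each set. In the 8 rats of arrays 1, 3, 5 and 7, r with Cd74 was 0.82 to 0.97 (exact permutation p 0.00697 or lower after adjustment over 6 genes), and in the 8 rats of arrays 2, 4, 6 and 8 it was also 0.82 to 0.97 (adjusted exact permutation p 0.0104 or lower). Over the 8 differences between the rats of an array, which remove what an array adds to both, r was 0.75 (RT1-DMa) to 0.99 (RT1-Da), with an adjusted exact permutation p of at most 0.0295. On arrays 1 to 4 it was 0.75 to 0.98 and on arrays 5 to 8 it was 0.92 to 0.98.

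Because lymphocyte markers fell into separate clusters of rats, their relation to Cd74 was computed inside each set only, as 14 relations for 7 lists, with exact permutation p adjusted over the 14. The B cell mean followed Cd74 in the first set, with r 0.89 (rho 0.93, adjusted p 0.00833, exact permutation). In the second set, where B cell markers were low, r was 0.52 (rho 0.64, adjusted p 0.221, exact permutation). There, Cr2 was 5.93 to 6.54, Blk 6.15 to 6.53 and Fcer2 6.21 to 6.51, at or near the lowest signals well above background (5.82 to 6.21). Cd79b (6.84 to 7.62) and Pax5 (8.20 to 8.51) lay higher. Among the T cell markers in this set, Cd2 (6.25 to 6.48), Cd5 (6.20 to 6.48) and Cd8b (6.18 to 6.44) lay as low. Cd3d (8.25 to 9.06) and Cd3g (8.23 to 9.80) lay higher. The part of low signals in the r of 0.52 was not tested, and it is not read as a weaker relation. The T cell mean gave r 0.82 (adjusted exact permutation p 0.0217) and 0.94 (0.00469), and Ptprc 0.94 and 0.95 (0.00382 each). The macrophage mean gave r 0.46 (adjusted exact permutation p 0.249) in the first set and 0.91 (0.00382) in the second. The mean of the dendritic cell markers gave r 0.73 (adjusted exact permutation p 0.0599) and 0.93 (0.00486), with 5 of 8 markers measured and Itgax and Flt3 without a probe. Of these 5, Zbtb46 and Itgae were near background, with mean log2 signals of 6.25 and 6.17. Ccr7 was also near background in the second set, at 6.04 to 6.44. Plasma cell markers gave r 0.38 (rho 0.024, adjusted exact permutation p 0.373) and 0.93 (0.00486). Epithelial markers gave r -0.70 and 0.74, neither of which passed (adjusted exact permutation p 0.0676 and 0.0567). Without the 2 rats farthest from the median of Cd74 in a set, r was 0.90 and 0.61 for B cells, 0.89 and 0.92 for T cells, 0.95 and 0.88 for Ptprc, 0.074 and 0.79 for macrophages, 0.90 and 0.88 for dendritic cells, 0.36 and 0.91 for plasma cells and -0.60 and 0.42 for the epithelium. Whether the slopes differ between the sets was not tested.

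The genes with a symbol whose pattern over the 16 rats was most like that of Cd74, with the 8 genes themselves left out, were Hcst and Slc15a3 (r 0.97 each), Ptpn7, Itgb7, Ly6e, Fgr, Laptm5, Lcp2, Pacs1 and Itgad (r 0.96 to 0.97). Hcst encodes an adaptor of activating receptors of lymphocytes, Ptpn7 a phosphatase and Lcp2 an adaptor of blood cells, Fgr a kinase of myeloid cells, Itgb7 the beta chain of the gut-homing integrin and Laptm5 a lysosomal protein of leukocytes. Slc15a3, Ly6e, Pacs1 and Itgad are not described here, and the list was not tested for a cell type. The r values describe likeness over the same 16 samples and are given without a test.

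For RT1-Bb and RT1-Db1, the array carried a second probe, and for RT1-Bb the result depended on which was read. The other probe of RT1-Bb was at 6.72 in CF rat 1 and 7.69 in REF rat 1, whereas the other 14 rats had 11.05 to 13.82. In the same rats the brighter probe gave 12.84 and 12.08, so that the probes differed by -6.12 and -4.39 there. By the median over the 16 rats, the other probe was the higher of the pair, at 12.51 against 12.22, so the probe used was the brighter in the mean alone. In 12 rats the difference lay between -0.30 and 0.30, and in C10 rat 1 and CF rat 4 the other probe was the higher by 1.49 and 1.33. The other probe of RT1-Db1 was also low in CF rat 1 (11.36 against 12.79) and REF rat 1 (10.93 against 12.27), differences of -1.43 and -1.33, while those of the remaining rats lay between -0.39 and 0.32. CF rat 1 and REF rat 1 were on different arrays. Read from its other probe, RT1-Bb had a fitted log2 change of 1.71 in C10 against REF, 1.29 in C10 against CF and 0.73 in C10 against I. These signs were opposite to those of the brighter probe, with limma's adjusted p between 0.536 and 0.883. In C10 against I, however, the C10 group mean of the other probe was below that of I. The positive sign there came from the fit with its array block. The other probe read 13.82, 11.95, 11.81 and 11.05 in the C10 rats and 13.34, 12.42, 12.91 and 12.45 in the I rats. REF rat 1 and CF rat 1 shared arrays 1 and 3 with C10 rats. The r of the other probe with Cd74 was 0.36 in place of 0.93. The RT1 genes are highly polymorphic, and an array probe reads an allele less well where it differs in sequence; the part of such differences in these signals was not tested.

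**Figure D5:**
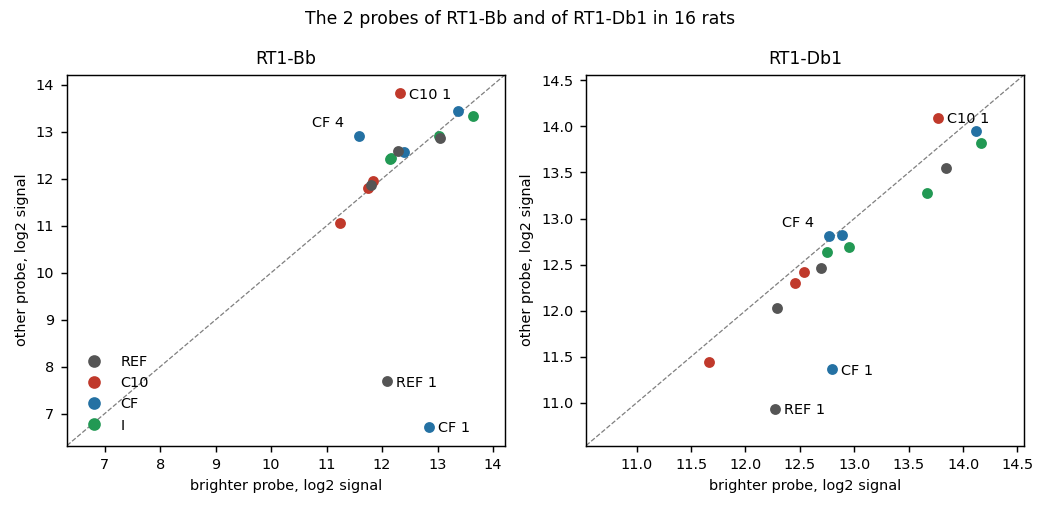
Log2 signal of the other probe (y axis) against the brighter probe (x axis) of RT1-Bb and of RT1-Db1 in 16 rats, with the line of equality dashed and 4 rats named. For RT1-Bb, CF 1 and REF 1 lie below the line, with differences of -6.12 and -4.39, and C10 1 and CF 4 lie 1.49 and 1.33 above it, and for RT1-Db1, CF 1 and REF 1 differ by -1.43 and -1.33.

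Of 20 further genes of the class II pathway, 18 were tested. Against REF, 1 of the 18 passed the adjusted threshold at any fold in C10, where 0.945% of all genes did, and 0 passed in CF and in I, where 0% did. The gene that passed was Cst3, which encodes cystatin C, an inhibitor of cysteine proteases such as the cathepsins of endosomes. Its log2 signal was 14.91, 14.82, 14.81 and 15.21 in the REF rats and 14.36, 14.65, 14.31 and 14.56 in the C10 rats. It was 14.78 to 15.16 in the CF rats and 14.96 to 15.02 in the I rats, so that all 4 C10 rats lay below the other 12. Cst3 was named because of its adjusted p in the same rats, and how many of all genes separate likewise was not counted. Cst3 fell by 0.47 on the log2 scale in C10 against REF (SE 0.10, limma's adjusted p 0.0462), less than 2-fold. In C10 against I it fell by 0.54 (SE 0.11, limma's adjusted p 0.0460), a comparison in which 0.563% of all genes passed at any fold. The change lay between -0.50 and -0.45 under 12 alternatives of the processing, but its adjusted p against REF was no longer below 0.05 in 10 of them (range 0.0331 to 0.291) and without any 1 of 13 of the 16 rats (highest 0.101, without C10 rat 1).

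The other genes of that list did not pass against REF. Ctse, the gene of the endosomal aspartic protease cathepsin E, had a log2 change of 0.68 (SE 0.19, limma's adjusted p 0.0944) in C10, and Ctsd, that of cathepsin D, one of 0.20 (SE 0.09, limma's adjusted p 0.260). Ctss, the protease that trims the invariant chain in B cells and dendritic cells, had 0.11 (SE 0.14), and Ifi30, a thiol reductase of the antigen pathway, 0.17 (SE 0.18). RT1-DOa and RT1-DOb, the chains of the DM inhibitor, had 0.07 (SE 0.30) and 0.29 (SE 0.56). The medians of the 18 genes were 0.05 in C10, 0.04 in CF and 0.09 in I, beside 0.01 for all genes.

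Of 19 genes of class II transcription and its inducers, 18 were tested, and Ifng, the inducer itself, was too dim to be tested. Of the 18, 0 passed in C10, CF or I against REF, beside 0.945%, 0% and 0% of all genes. An unadjusted p below 0.05 was found for 3 of the 18 in C10, 1 in CF and 2 in I, all with positive changes, beside 17.1%, 6.34% and 5.71% of all genes. The counts in C10 and CF were thus near the background. Creb1, whose product binds class II promoters beside the X box, was among them in each, with a log2 change of 0.35 (SE 0.10, limma's adjusted p 0.0916) in C10, 0.25 (SE 0.10) in CF and 0.27 (SE 0.10) in I. The others were Rfxap, a subunit of the factor that binds the X box, with 0.16 (SE 0.07) in C10, Jak2, a kinase of the interferon gamma receptor, with 0.14 (SE 0.06) in C10, and Prdm1, a repressor of Ciita in plasma cells, with 0.36 (SE 0.11) in I.

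Of 14 genes of class I presentation, the sister pathway that loads peptides made by the proteasome, 12 were tested. Of these, 0 passed against REF in any diet, beside 0.945% of all genes in C10 and 0% in CF and in I. The smallest unadjusted p-values belonged to Pdia3 (log2 change -0.32, SE 0.14) and RT1-A1 (0.30, SE 0.14) in C10, to Tapbp (0.29, SE 0.13) and Tap2 (0.33, SE 0.14) in CF and to Canx (0.21, SE 0.09) in I. RT1-A1 belongs to a family of near-identical genes whose members a probe may not tell apart.

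Markers of other cells that may carry class II were compared between the diets as well. Of 12 macrophage markers, 0 passed in C10 against REF, beside 0.945% of all genes, and 6 had an unadjusted p below 0.05, beside 17.1%. These were Adgre1 (-0.67), Aif1 (-0.58), C1qb (-0.53), C1qa (-0.51), C1qc (-0.50) and Cd68 (-0.41), with limma's adjusted p between 0.0769 and 0.159. Of the others, 3 had positive changes of up to 0.30, and the median of the 12 was -0.34. Aif1 passed in C10 against CF (-0.85, SE 0.16, limma's adjusted p 0.0315), where 0.427% of all genes passed at any fold, and in C10 against I (-0.83, SE 0.17, limma's adjusted p 0.0459). The mean over the 12 markers was 9.88 to 10.18 in the REF rats, 9.49 to 9.998 in the C10 rats, 10.11 to 10.31 in the CF rats and 10.08 to 10.26 in the I rats. The C10 rats thus overlapped the REF rats and lay below the CF and I rats.

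Of 4 plasma cell markers tested, 0 passed in C10 against REF, beside 0.945% of all genes, and 2 had an unadjusted p below 0.05, beside 17.1%. These were Tnfrsf17, a survival receptor of plasma cells, with -1.34 (SE 0.37, limma's adjusted p 0.0940), and Mzb1, a chaperone of antibody secretion, with -0.92 (SE 0.39, limma's adjusted p 0.251). The median of the 4 was -0.60 against REF, -0.60 against CF and -0.92 against I, and that of the macrophage markers was -0.34, -0.54 and -0.50. The mean over the 4 was 10.38 to 11.15 in the REF rats and 9.50 to 10.51 in the C10 rats, which overlapped. Of 5 dendritic cell markers, 0 passed in C10 against REF, beside the same 0.945%. Clec9a, a receptor of cross-presenting dendritic cells, had -0.56 (SE 0.16, limma's adjusted p 0.106) there. The B cell mean was 6.75 to 9.33, 6.81 to 9.26, 6.80 to 9.72 and 6.91 to 9.43 in the REF, C10, CF and I rats. The part of the number of any of these cells in the RT1-Bb and Cst3 signals of C10 rats was not tested.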

How the data were processed

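The authors hybridized colon RNA of 16 rats to 8 two-color Agilent arrays and deposited the output of Agilent Feature Extraction 10.7.3.1, per the submitters' processing notes: for each dye the median intensity of every spot and of its local background, not normalized, with flags for spots well above background. The deposited processed intensities were an alternative. A normalized table of the series was not used here, since the names of its 8 columns match no sample.

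The steps, run in R 4.3.3 with limma 3.58.1, were normexp (offset 50), spatial loess (span 0.4), intensity loess (span 0.3) and Aquantile. The methods of the study name these steps, and the offset and spans were chosen here. Spots of a probe were averaged. The filter kept 22539 of 30367 probes, those well above background in 4 or more rats that had a value on all arrays (6 lacked one). Array accessions were matched to RefSeq symbols (GRCr8), and each gene was read from its brightest probe, 19901 genes in all. 0 spots were saturated. The number of arrays limits the precision.

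The log2 signals of the dyes were fitted with diet and dye as terms and the array as a random block (correlation 0.418), with empirical Bayes moderation by limma, and p-values were adjusted over all genes by Benjamini-Hochberg. The fitted change can differ from the difference of group means because of this block. Dye-adjusted values have the fitted dye effect removed. Whether rats were littermates or shared a cage is not given. The fit was tested on simulated data. Correlations and exact permutation tests used numpy 2.4.6. Alternatives changed the offset, signal, normalization, dye term, block, filter, probe and test, and left out each rat. The separation of arrays 1, 3, 5 and 7 was added as an alternative after seeing the data.

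The 8 genes and all lists were chosen with earlier results of these data known. Named were the 8 genes with every probe; further pathway genes past the adjusted threshold against REF, and up to 4 per list and diet with an unadjusted p below 0.05; and the 10 genes most correlated with Cd74. Values for Ctss, Ifi30, RT1-DOa and RT1-DOb were added for their role in the pathway. The values of 1 B cell marker are not reported here, and the list means include it.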

Additional observations from a re-analysis of the deposited data

Results flagged for a closer look

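Within a diet, 1 rat stood apart from the other 3 for 3 of 36 sets of 4 rats (9 probes in 4 diets), where chance gives about 1 in 20. The measure is the gap of the extreme rat to its neighbor as a share of the whole range, beyond Dixon's 95% critical value for 4 samples. For the other probe of RT1-Bb it was 0.871 for CF rat 1, which was low at 6.72. For the brighter probe of RT1-Db1 it was 0.909 for CF rat 3, which was high at 14.12, and for RT1-DMb it was 0.858 for REF rat 3, which was high at 11.28. CF rat 3 and REF rat 3 also had high B cell means, 9.72 and 9.33, and what part these have was not tested.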

How the results depend on the processing

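In each of the 6 comparisons, 0 of the 7 genes were called under all 14 alternatives and with any 1 of the 16 rats left out. The median change of the 7 genes was itself below 0.62, the spread of rats within a diet, in every comparison. Its sign turned in C10 against REF (-0.04) and in CF against I (-0.07), which were 0.11 and 0.053 without normalization between arrays, 0.22 and 0.15 from within-array log ratios, and 0.13 and 0.11 with a term for arrays 1 to 4. With 1 rat left out, the median ran from -0.48 (without C10 rat 1) to 0.24 (without REF rat 3) in C10 against REF, from -0.72 (without C10 rat 1) to -0.04 (without C10 rat 4) in C10 against CF, from -0.83 to -0.13 (the same rats) in C10 against I, from -0.31 (without CF rat 3) to 0.23 (without CF rat 4) in CF against I, from 0.12 to 0.64 in CF against REF and from 0.20 to 0.76 in I against REF. Signs of single genes also turned in C10 against REF. Without normalization between arrays, Cd74 had 0.11, RT1-Da 0.083 and RT1-DMb 0.12; from within-array log ratios, 0.23, 0.18 and 0.22; and with a term for arrays 1 to 4, 0.13, 0.11 and 0.18. RT1-Db1 had -0.0084 without the dye term, -0.17 without the array block and in rank product, and -0.022 with a term for arrays 1, 3, 5 and 7. The other probe turned the fitted change of RT1-Bb to 1.71 (C10 against REF), 1.29 (against CF) and 0.73 (against I). In C10 against I, its group means still differed in the negative direction. It also lowered the r of RT1-Bb with Cd74 to 0.36 (adjusted permutation p 0.167), and the cause was not tested. With 1 rat left out, the change in C10 against REF ran from -0.54 to 0.25 for Cd74, -0.37 to 0.49 for Ciita, -0.36 to 0.30 for RT1-DMb, -0.51 to 0.21 for RT1-Da and -0.48 to 0.40 for RT1-Db1. In CF against REF it ran from -0.076 to 0.70 for Ciita, -0.031 to 0.27 for RT1-DMa and -0.055 to 0.61 for RT1-DMb. Over all genes, the calls in C10 against REF (39) were 66 without the offset, 64 from processed signals, 26 without the filter, 21 without the dye term, 17 without the array block, 0 from log ratios and 136 in rank product. With 1 rat left out they ran from 17 to 94, being 94 without REF rat 3, 65 without C10 rat 1, 24 without CF rat 3 or I rat 4, 23 without REF rat 4 and 17 without REF rat 2. In C10 against CF, 0 to 38 were called, with 38 without C10 rat 1, 34 without C10 rat 2, 12 without C10 rat 4, 3 without CF rat 3, 1 without C10 rat 3 and 0 without CF rat 1 or 2. In C10 against I it was 15 to 60, with 60 without C10 rat 1, 20 without CF rat 1, 18 without I rat 4 and 15 without I rat 2. Across the alternatives, those in C10 against CF (20) ranged from 0 to 64, in C10 against I (33) from 0 to 109, and in CF and I against REF (0 each) were 49 and 30 in rank product. No paired analysis was possible by replicate number, because the labels give none; rats were paired by array, as the block of the fit and in the within-array log ratios above.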

Other observations

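The low readings of CF rat 1 and REF rat 1 were not limited to RT1-Bb and RT1-Db1. This comparison of rats was chosen after the values were seen and is given without a test. Of 22539 probes, 75 were lower in both of these rats than in each of the other 14. The number that a pair of rats gives by chance was not computed, so 75 is not read as an excess. Of the 75, 3 were lower by more than 1 log2 unit. These were the other probe of RT1-Bb (at most 7.68 in the pair and at least 11.06 in the others, without dye adjustment), the probe of the class I gene RT1-CE16 (11.75 and 13.01) and that of the transcript NM_001134701 (11.11 and 12.12). Among the 39 probes of RT1 genes, 9 were lowest in this pair. These 9 include the other probes of RT1-Bb and RT1-Db1, by which the pair was picked. The counts for chromosome 20 that follow include them too. No other pair of rats was compared in this way. Of the 75 probes, 46 belonged to a gene with a chromosome in the annotation, and 13 of these (28.3%) lay on chromosome 20, which carries the RT1 complex, compared with 3.22% of the other 14122 such probes. CF rat 1 was on array 3 and REF rat 1 on array 1.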
